A study of Mus musculus with 4 samples.

Results

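The genes described here encode the proteins of the cytosolic ribosome. Members were chosen by symbol: protein-coding genes of GRCm38 whose symbol starts with Rpl or Rps followed by a digit, together with Rplp0, Rplp1, Rplp2 and Rpsa, and with at least 1 CPM (counts scaled to the total of each library) in at least 2 libraries. The Rps6k kinases, Rps19bp1 and Rpl7l1 were left out. Of 90 protein-coding genes with such a symbol, 83 passed the filter, out of 14492 genes kept and 55421 genes listed. They comprise 33 Rps genes, whose proteins belong to the small (40S) subunit, and 50 Rpl genes, whose proteins belong to the large (60S) subunit. A further 290 ribosomal protein pseudogenes matched by symbol and were not members.

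Gene expression was measured in whole uteri of pregnant mice at E18.5, 2 WT mice (C57BL/6J) and 2 Qa-2- mice (strain B6.Cg-H2b3/FlaCmwJ, also called B6.K1), all from syngeneic matings, with 1 library per mouse. Qa-2 is a non-classical MHC class I molecule, and the comparison asks which transcripts of the late-pregnant uterus differ when it is lacking. The Qa-2- strain carries no engineered deletion but arose spontaneously among crosses of H2 congenic strains, and it came from another breeder than the WT mice, so that lack of Qa-2, the rest of its H2 segment and origin cannot be told apart. RNA was taken from a piece of each frozen uterus, enriched for poly(A) RNA and sequenced in strand-specific read pairs.

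A ribosome holds 1 copy of nearly every ribosomal protein, so that their mRNAs are made in comparable amounts in most cells and together form one of the most abundant classes of mRNA. Most of these mRNAs begin with a C that is followed by a run of pyrimidines, the terminal oligopyrimidine (TOP) motif, through which mTOR and LARP1 set their translation. In the uterus, oestrogen is known to stimulate ribosome synthesis as the tissue grows. The genes are short, have few alternative isoforms, and have left many processed pseudogenes in the mouse genome.

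The starts of 8 members are shown. Rpl7a and Rpl27a illustrate the shared sequence feature of the class, Rpl10 a start with hardly any of it, and the others belong to genes whose values are described further on. Each line holds 20 bases before and 10 bases from the RefSeq start (GRCm38.p6), 5′ to 3′ on the strand of the gene, and capitals mark the longest run of C and T that begins within 20 bases of the start, as far as it lies in the window.
Rpl7a: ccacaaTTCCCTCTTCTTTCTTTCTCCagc
Rpl27a: cgcgagacttcgtgagCTCCTCCCTTTTCC
Rps6: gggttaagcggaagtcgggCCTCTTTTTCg
Rps27: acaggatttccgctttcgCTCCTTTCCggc
Rps27l: cctctccaCTCCTCCCCgccgcctctatcc
Rpl22l1: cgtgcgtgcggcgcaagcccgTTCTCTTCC
Rps10: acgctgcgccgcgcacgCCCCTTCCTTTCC
Rpl10: ctatggttgttacagtggaagataggccgC

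The windows lie at chr2:26910787-26910816 on the plus strand for Rpl7a, chr7:109519175-109519204 on the plus strand for Rpl27a, chr4:86857358-86857387 on the minus strand for Rps6, chr3:90213639-90213668 on the minus strand for Rps27, chr9:66946066-66946095 on the plus strand for Rps27l, chr3:28805488-28805517 on the plus strand for Rpl22l1, chr17:27635235-27635264 on the minus strand for Rps10 and chrX:74270796-74270825 on the plus strand for Rpl10. RefSeq promoters were found for 61 of the 83 members. Within 20 bases of the start, the longest run of C and T had a median of 7 bases in the members and of 5 bases in all 27025 promoters. A run of 8 or more bases was present in 28 of 61 members (45.9%), against 15.9% of all promoters. The longest run, of 21 bases, was that of Rpl7a, while at the annotated start of Rpl10 no run was longer than 3 bases. The letters CTTTC lay within 20 bases of the start on the sense strand in 18 members (29.5%) and in 5.38% of all promoters. In the whole 300 bases and on both strands, CCGGAAG, the letters bound by ETS factors such as GABPA, were found in 24 members (39.3%), in 9.12% of all promoters and in 17.3% of the promoters of other protein-coding genes kept. CTTTCC, which contains CTTTC, was found in 47.5% of the members and in 26.3% of all promoters by the same search, and in 26.2% of the promoters of other protein-coding genes kept. The TATA box TATAAA was found in 9.84% of the members, a share below that of all promoters (14.2%) and above that of other protein-coding genes kept (7.18%). These shares describe the letters in the windows and were not tested.

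The total count was between 33286390 and 41041299 read pairs per library and was larger in both WT libraries. H2-Q7, one of the genes that encode Qa-2, had 6318 and 1251 counts in WT and 4 and 2 counts in Qa-2- uteri, and H2-Q6 had 4204 and 1192 against 3 and 3, so that the genotype labels were borne out in every library. The uterine markers Pgr, the progesterone receptor (6831 to 10524 counts), and Oxtr, the oxytocin receptor (1002 to 5018 counts), were present in all 4 libraries. Qa-2- replicate 1 stood apart by markers of the yolk sac (Afp, Apob and others, 5 of 6 kept), which summed to 501.7 CPM there and to between 8.24 and 43.5 CPM elsewhere. Values without this library are given for the class, for many of the members named and for the pathway lists. With 2 mice per group, an exact two-sided permutation test of 1 value cannot go below p = 0.33.

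Ribosomal protein genes differed from mouse to mouse more than from genotype to genotype. Together, they took 3.67% of all counts in WT replicate 1 (exact binomial 95% interval 3.66% to 3.67%), 3.21% in WT replicate 2 (3.21% to 3.22%), 2.88% in Qa-2- replicate 1 (2.87% to 2.88%) and 4.20% in Qa-2- replicate 2 (4.19% to 4.20%). These intervals cover counting error only. Both the lowest and the highest share belonged to Qa-2- mice, and both WT mice lay between them. The mean share was 3.44% ± 0.322 (SD, n = 2) in WT and 3.54% ± 0.933 (SD, n = 2) in Qa-2- uteri, a difference of -0.097 percentage points (two-sided exact permutation test, p = 1). Without Qa-2- replicate 1 this difference was -0.757 percentage points, and without Qa-2- replicate 2 it was 0.563.

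The members moved together between libraries. On TMM-scaled library sizes, 78 of the 83 members had their lowest value in Qa-2- replicate 1, as did 21.3% of all genes kept, and 61 members had their highest value in Qa-2- replicate 2, as did 28.5% of all genes. The full order, with Qa-2- replicate 2 above WT replicate 1, WT replicate 2 and Qa-2- replicate 1, was found in 54 members (of all genes kept, in 3.65%). Members share these 4 libraries, so the counts describe the libraries and are not independent observations. From Qa-2- replicate 1 to Qa-2- replicate 2, the median member was higher by 0.47 on the log2 scale (range -0.37 to 0.87), whereas the median of all genes was 0.00. From WT replicate 2 to WT replicate 1, the median member was higher by 0.14, and 73 of 83 members were higher. In these bulk samples, fewer cells rich in ribosomal protein mRNA and less such mRNA per cell cannot be told apart. Nor can either be told apart from the piece of uterus taken or the preparation of each library.

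**Figure D1:**
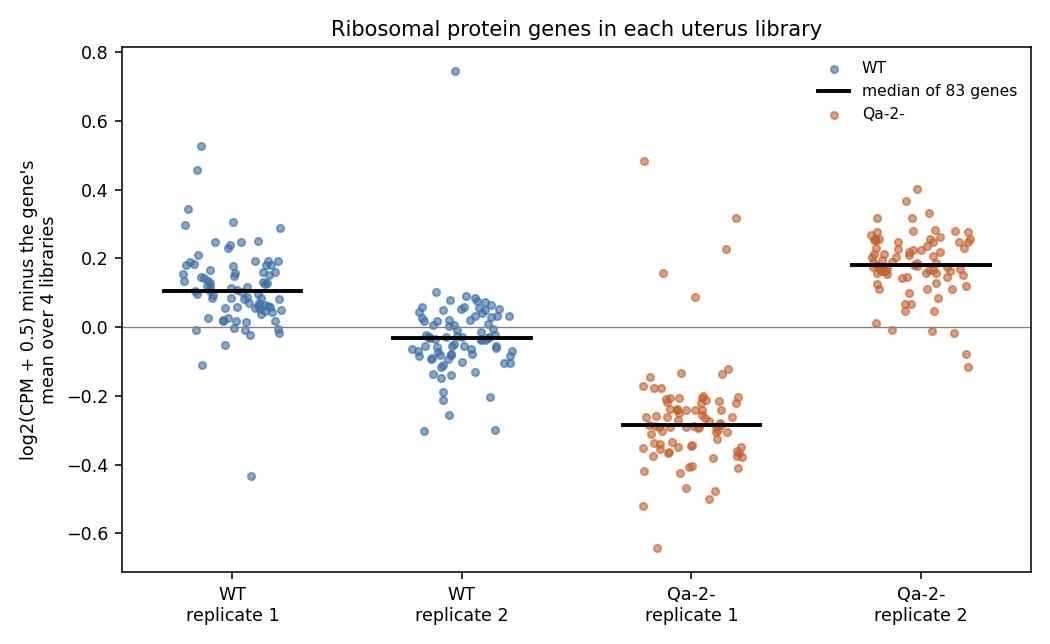
Each point is 1 of the 83 ribosomal protein genes in 1 library, as log2(CPM + 0.5) minus the mean of that gene over the 4 libraries, with WT in blue, Qa-2- in orange and the median as a black line. The medians are 0.10 and -0.03 for WT replicates 1 and 2 and -0.29 and 0.18 for Qa-2- replicates 1 and 2, and the 2 Qa-2- mice enclose the 2 WT mice.

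The 5 genes that were not lowest in Qa-2- replicate 1 were Rpl10-ps3, Rpl9-ps6 and Rps27rt, whose mRNA has a single exon, and Rps10 and Rpl36al, which have 53.6% and 63.1% of their mRNA overlapped by another annotated gene. They were singled out after their values were seen. All had fewer than 15 CPM in WT on average, which only 6 of the 83 members did. No member above 100 CPM per kb of mRNA (75 genes) departed from the low value in Qa-2- replicate 1.

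No ribosomal protein gene passed the test between the genotypes. With edgeR's quasi-likelihood test and p-values adjusted by Benjamini-Hochberg over all genes, 0 of 83 members had an adjusted p under 0.05, as did 0% of all genes kept, and the smallest adjusted p of a member was 0.36. Likewise, 0 members had an unadjusted p under 0.05, although 8.09% of all genes were higher in WT and 7.09% in Qa-2- mice at that level. DESeq2 also gave 0 members at either threshold, although by that tool 4.83% of all genes had an adjusted and 16.5% an unadjusted p under 0.05. The values of both groups did not overlap in 4 members higher in WT (4.82%, against 25.4% of all genes) and in 1 member that was higher in Qa-2- mice (1.20%, against 24.5% of all genes), and the groups overlapped in the other 78. These counts depended on the scaling, since with library totals alone no member was separated with WT higher (against 18.7% of all genes) and 4 were with Qa-2- higher (4.82%, against 32% of all genes), Rps10 among them. Under both scalings the shares were below those of all genes.

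The log2 fold change (WT over Qa-2-) had a median of 0.08 over the members, with 61 above and 22 below 0, and of 0.01 over all genes, a difference of 0.07. With library totals alone the medians were -0.02 for the members and -0.08 for all genes, a difference of 0.06. With an offset for gene length the medians were -0.06 and -0.01, so that the members lay below all genes by 0.05 on the log2 scale. Differences were small: 70 of 83 members lay within 0.2 on the log2 scale of 0, as did 38.8% of all genes. The 95% interval of the fold change held 0 in all 83 members and lay within 1 on the log2 scale of 0 in 75. The intervals of Rpl10-ps3, Rpl24, Rpl36al, Rpl41, Rplp0, Rps10, Rps14 and Rps27l reached further. Small and large subunit genes had medians of 0.08 each (33 and 50 genes). The sign of the median rested on single mice, since it was -0.13 without Qa-2- replicate 1 and -0.03 without WT replicate 1, and 0.33 without Qa-2- replicate 2. The number of members above 0 was 9, 31 and 78 in these fits, and without Qa-2- replicate 1 the fold change of 54 members changed sign.

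**Figure D2:**
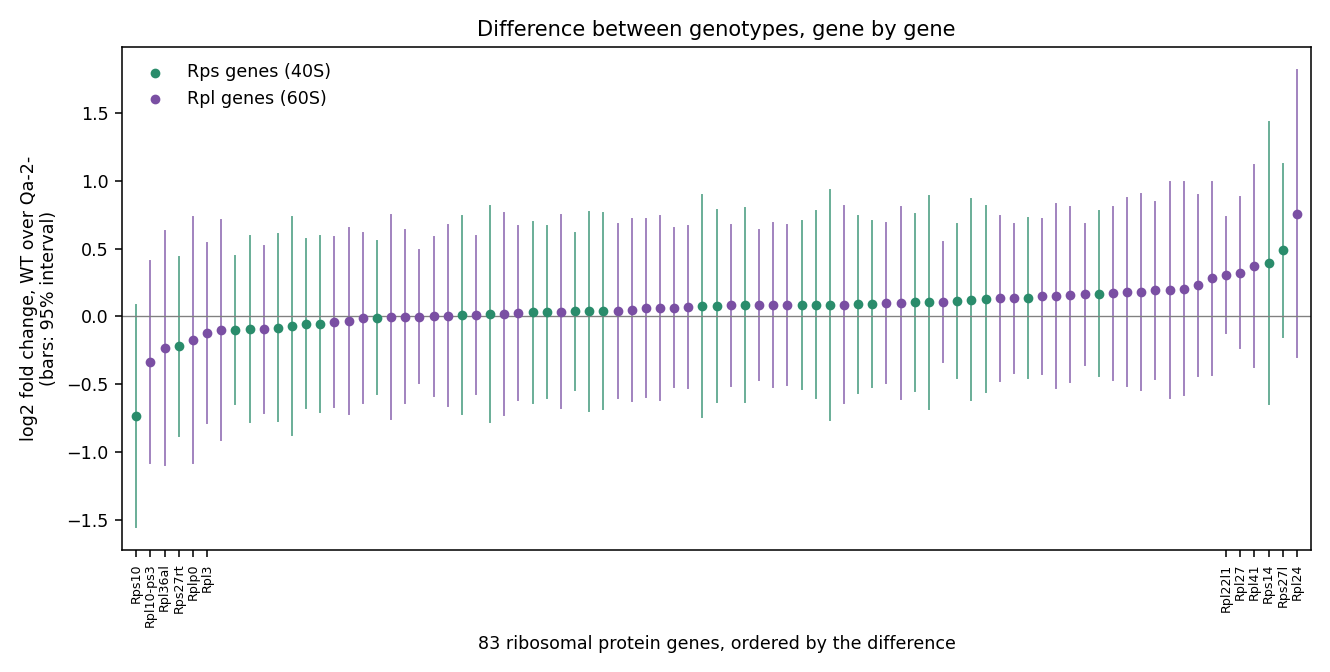
Log2 fold change, WT over Qa-2- (points), with its 95% interval from edgeR's quasi-likelihood fit (bars) for the 83 members, ordered by size, with the 6 lowest and 6 highest named, with Rps genes in green and Rpl genes in purple. The points run from -0.73 (Rps10) to 0.76 (Rpl24), most lie within 0.2 of 0, and every interval crosses 0.

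When each member was expressed as its share of all member counts, most of the spread between libraries was gone. The SD over the 4 libraries of log2 CPM had a median of 0.23 over the members and of 0.26 over all genes, and the SD of the log2 share of the member total had a median of 0.08. The SD was smaller as a share in 77 of 83 members. Rpl28, a large subunit protein, was the steadiest (SD of its log2 share 0.01), although its CPM were 488.3 and 442.4 in WT and 365.3 and 525.3 in Qa-2- uteri. The composition of the class varied less than its level. Rpl10 and 5 genes of low count, the same genes that were not lowest in Qa-2- replicate 1, were the exceptions.

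The stalk proteins RPLP0, RPLP1 and RPLP2 recruit the GTPase translation factors to the large subunit. Rplp0 (ENSMUSG00000067274, chr5:115559467-115563727, which encodes the base of the stalk) had 1713 and 1418 CPM in WT against 1415 and 2119 CPM in Qa-2- mice, with the Qa-2- mice on either side of WT. Its mean was 1565 ± 209 CPM for WT and 1767 ± 497 CPM for Qa-2- (SD, n = 2), a log2 fold change of -0.17 (SE 0.36, edgeR adjusted p = 0.84), which was -0.44 without Qa-2- replicate 1, -0.35 without WT replicate 1 and 0.15 without Qa-2- replicate 2. It had the largest count of the members, 4.22% to 5.30% of the member total. Rplp1, its acidic partner, had 829.7 and 787.6 CPM in WT against 635.8 and 877.0 CPM in Qa-2- mice and was the most abundant member per kb of mRNA. Rplp2, the other acidic partner, had 294.5 and 251.1 CPM against 235.3 and 306.6 CPM. All 3 stalk genes overlapped between the genotypes.

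Of the small subunit, Rps6, whose protein is phosphorylated downstream of mTOR by the S6 kinases, had 336.7 and 307.1 CPM in WT against 279.8 and 388.9 CPM in Qa-2- mice (log2 fold change -0.05, SE 0.24, and -0.27 without Qa-2- replicate 1). Rps19, needed for maturation of the small subunit and mutated in Diamond-Blackfan anaemia, had 387.2 and 331.8 CPM against 267.8 and 411.4 CPM (0.08, SE 0.28, and -0.19 without Qa-2- replicate 1). Rpsa, which is also known as the laminin receptor precursor, had 895.2 and 790.5 CPM against 696.7 and 1075 CPM (-0.07, SE 0.32, and -0.35 without that library). In each of these genes the highest and the lowest library were both Qa-2-. Rps14 (ENSMUSG00000024608, chr18:60747098-60778546), whose protein lies at the platform of the small subunit, showed the widest spread of the abundant members, with 1075 and 694.3 CPM in WT against 477.7 and 871.7 CPM in Qa-2- mice. Here the first WT mouse was the highest, and its share of the member total was 2.87% against 1.69% to 2.18% in the other libraries. The log2 fold change of 0.39 (SE 0.41, edgeR adjusted p = 0.67) was 0.01 without WT replicate 1, 0.02 without Qa-2- replicate 1 and 0.89 without Qa-2- replicate 2.

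Of the large subunit, Rpl5 and Rpl11 encode the proteins that bind 5S rRNA and, when not built into ribosomes, hold back MDM2. Rpl5 had 514.8 and 445.2 CPM in WT against 402.2 and 553.4 CPM in Qa-2- mice, and Rpl11 had 426.8 and 368.0 CPM against 293.2 and 423.4 CPM. Neither was separated by genotype (log2 fold changes 0.01, SE 0.26, and 0.15, SE 0.27), and without Qa-2- replicate 1 the fold changes were -0.21 and -0.09. Rpl38, known for its part in translation of Hox mRNAs, had 125.8 and 110.3 CPM in WT against 91.0 and 119.8 CPM in Qa-2- mice. Rpl41, the smallest ribosomal protein, had 667.1 and 544.2 CPM against 378.0 and 558.4 CPM, and its log2 fold change of 0.37 (SE 0.29, adjusted p = 0.57) was 0.12 without Qa-2- replicate 1 and 0.68 without Qa-2- replicate 2. Rpl3, which lies near the peptidyl transferase centre, had 709.1 and 673.5 CPM against 653.2 and 851.8 CPM. Rpl27 was 1 of the 4 members with both WT mice above both Qa-2- mice on TMM-scaled libraries, by 204.5 and 182.2 CPM against 132.1 and 177.4 CPM. Its means were 193.3 ± 15.8 and 154.8 ± 32.0 CPM (SD, n = 2; log2 fold change 0.32, SE 0.22, edgeR adjusted p = 0.52), and leaving out Qa-2- replicate 1 brought the fold change to 0.12 on the log2 scale. Scaled to library totals, its groups overlapped (174.4 CPM in WT replicate 2 against 186.4 CPM in Qa-2- replicate 2).

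The paralogs Rps27l, Rpl22l1 and Rpl36al, which can take the place of a standard ribosomal protein, were members, and none of the 3 passed the test. On TMM-scaled libraries both WT mice were above both Qa-2- mice in Rps27l and Rpl22l1, as in 25.4% of all genes, and with library totals alone the groups overlapped in both. Rpl36al, the paralog of Rpl36a, had a log2 fold change of -0.23 (SE 0.34), with groups that overlapped on TMM-scaled libraries and were separated with Qa-2- higher on library totals. Rps27l (ENSMUSG00000036781, chr9:66946086-66949516), a paralog of Rps27 and a known p53 target, had 92.97 and 69.2 CPM in WT against 47.6 and 68.1 CPM in Qa-2- mice. On this scale both WT mice were above both Qa-2- mice, the closest pair with 69.2 and 68.1 CPM, whereas on library totals that pair had 66.2 and 71.5 CPM. The means were 81.1 ± 16.8 and 57.8 ± 14.5 CPM (SD, n = 2), and the log2 fold change of 0.49 (SE 0.25, 95% interval -0.15 to 1.12, edgeR adjusted p = 0.41) was 0.23 without WT replicate 1, 0.25 without Qa-2- replicate 1, 0.68 without WT replicate 2 and 0.77 without Qa-2- replicate 2. No 100-base window of its mRNA occurred in another gene. Its parent Rps27 had 335.6 and 289.2 CPM in WT against 233.6 and 358.7 CPM in Qa-2- mice, with overlapping groups (0.08, SE 0.28, and -0.20 without Qa-2- replicate 1).

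Rpl22l1 (ENSMUSG00000039221, chr3:28805436-28807424), the paralog of Rpl22 whose expression RPL22 is known to restrain, had 77.1 and 69.3 CPM in WT against 53.5 and 64.8 CPM in Qa-2- mice, without overlap, although on library totals WT replicate 2 (66.3 CPM) lay below Qa-2- replicate 2 (68.1 CPM). The means were 73.2 ± 5.54 and 59.2 ± 8.0 CPM (SD, n = 2), a log2 fold change of 0.31 (SE 0.17, 95% interval -0.12 to 0.73, edgeR adjusted p = 0.44), which leaving out Qa-2- replicate 1 brought to 0.17 and leaving out WT replicate 1 to 0.20. Rpl22 itself had 213.3 and 205.6 CPM against 162.5 and 229.5 CPM. The fold changes of Rps27l and Rpl22l1 were above 0 in each of 15 fits with all libraries, as were those of 17 of the 83 members in all, while 16 members were below 0 in each. These fits share the same libraries and several differ little, so a constant sign is no independent support. The share of all genes with a constant sign was not counted. The testis paralogs Rpl10l (0 counts in all libraries, where a floor of 3 counts allows up to 0.0901 CPM on library totals), Rpl39l (6, 0, 0 and 0 counts) and the muscle paralog Rpl3l (38, 19, 9 and 32 counts) did not pass the filter, and neither did the copies Rpl36a-ps1, Rpl9-ps1, Rpl36-ps4 and Rps12-ps3, with at most 36 counts in a library. Rps4l, a paralog of the X-linked Rps4x, is annotated as a transcribed pseudogene, is no member, and had between 533 and 601 counts. The parents Rpl10, Rpl36a, Rpl39 and Rps4x had log2 fold changes of 0.00, 0.00, 0.08 and -0.10, all with overlapping groups.

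**Figure D3:**
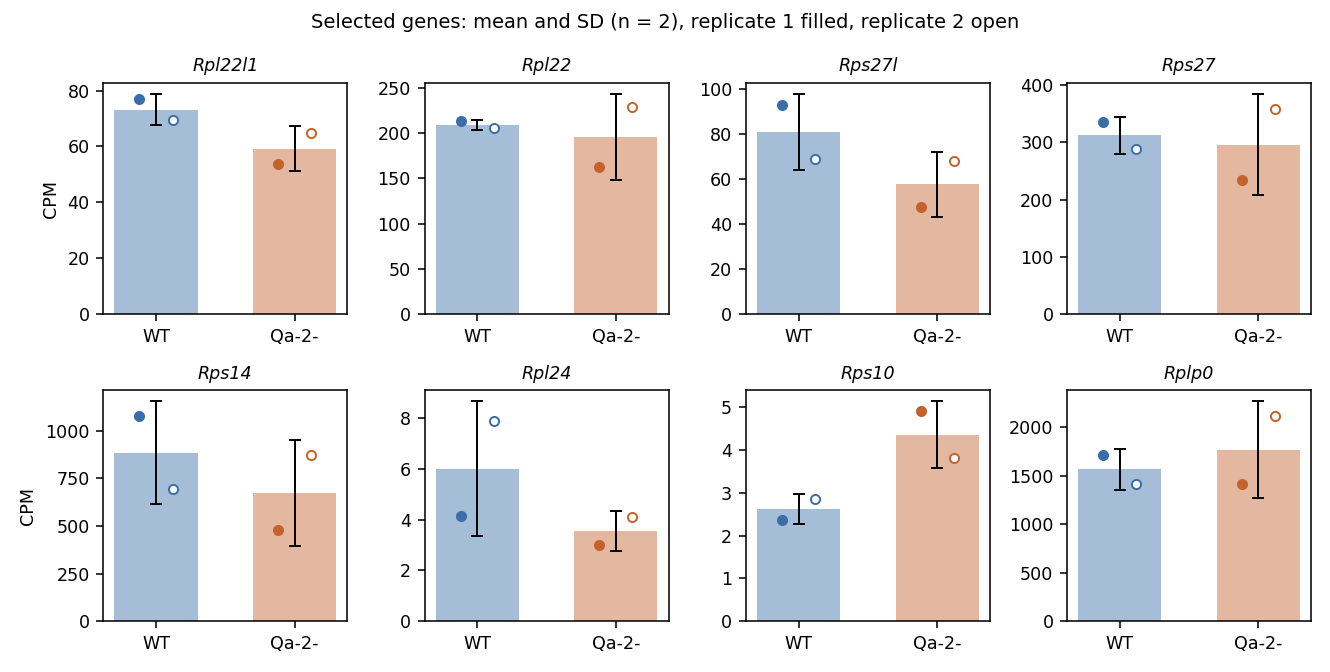
CPM of 8 members by genotype, with bars for the mean, whiskers for the SD (n = 2), filled points for replicate 1 and open points for replicate 2, each panel with its own linear axis from 0. On these TMM-scaled libraries the points of both genotypes are separated for Rpl22l1, Rps27l, Rpl24 and Rps10, by a narrow gap for Rps27l (69.2 against 68.1 CPM) and for Rpl24 (4.14 against 4.12 CPM), and overlap for Rpl22, Rps27, Rps14 and Rplp0, while on library totals Rps10 alone of the 8 stays separated.

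The members at both ends of the order of fold changes had few counts. Rps10 (ENSMUSG00000052146, chr17:27630418-27636669) had 2.37 and 2.86 CPM in WT against 4.90 and 3.80 CPM in Qa-2- mice, that is 95 to 174 read pairs per library, and was the only member with both Qa-2- mice above both WT mice on TMM-scaled libraries (with library totals alone Rpl10-ps3, Rpl36al and Rps27rt were so too). Its log2 fold change was -0.73 (SE 0.32, edgeR adjusted p = 0.36) and stayed between -0.91 and -0.54 when single libraries were left out. Rpl24 (ENSMUSG00000098274, chr16:55966275-55971435) had 4.14 and 7.87 CPM in WT against 2.99 and 4.12 CPM in Qa-2- mice, 166, 297, 106 and 144 read pairs. Its groups came within a narrow gap of each other (4.14 against 4.12 CPM) and overlapped on library totals (4.04 against 4.33 CPM). Its log2 fold change of 0.76 (SE 0.42, adjusted p = 0.44) was 0.21 without WT replicate 2 and 0.54 without Qa-2- replicate 1. By contrast, 74 members had over 100 CPM in WT.

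For these genes, the annotation limits what could be counted. Read pairs that overlapped several genes or mapped to several places were not counted by the authors. RPS10-NUDT3, an annotated read-through gene, covers 53.6% of the mRNA of Rps10, and Gm28037 covers 71.5% of that of Rpl24. Likewise Gm49383 covers 63.1% of Rpl36al (2.62, 2.01, 2.85 and 2.60 CPM in the order WT replicates 1 and 2, Qa-2- replicates 1 and 2), and Gm45713 with Snord33 and Mir5121 covers 59.3% of Rpl13a, a member of the GAIT complex (39.6, 39.2, 32.6 and 40.6 CPM). No other member had over 20% of its mRNA covered. RPS10-NUDT3, Gm28037 and Gm45713 had 0 counts in every library, and Gm49383 had 3 to 20. The values of these 4 members therefore come from the remainder of each mRNA and are not comparable in level with other members.

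Per kb of mRNA, the members had a median of 482.5 CPM per kb. The highest were Rplp1 (1568 CPM per kb), Rps14 (1306) and Rplp0 (1227). Rps10 (3.93), Rpl36al (4.79) and Rpl10-ps3 (6.73) had the smallest values but cannot be ranked against other members, since the first pair is overlapped as given above and Rpl10-ps3 shares 95.8% of its 100-base windows with other genes. Next to the highest, Rps24 (1101) and Rps15 (1031) differed from Rplp0 by less than its spread between mice. The annotated length sets some of this order, as Rps15a, with 220.9 to 302.3 CPM, had only 51.5 CPM per kb on an mRNA of 5179 bases. The 3 members with a single exon were low throughout: Rpl10-ps3 had 5.08 and 4.06 CPM in WT against 6.48 and 5.06 CPM in Qa-2- mice, Rps27rt had 9.09 and 6.84 against 10.1 and 8.49 CPM, and Rpl9-ps6 had 13.2 and 10.1 against 12.3 and 10.9 CPM. Their parents Rpl10, Rps27 and Rpl9 had between 233.6 and 869.0 CPM.

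**Figure D4:**
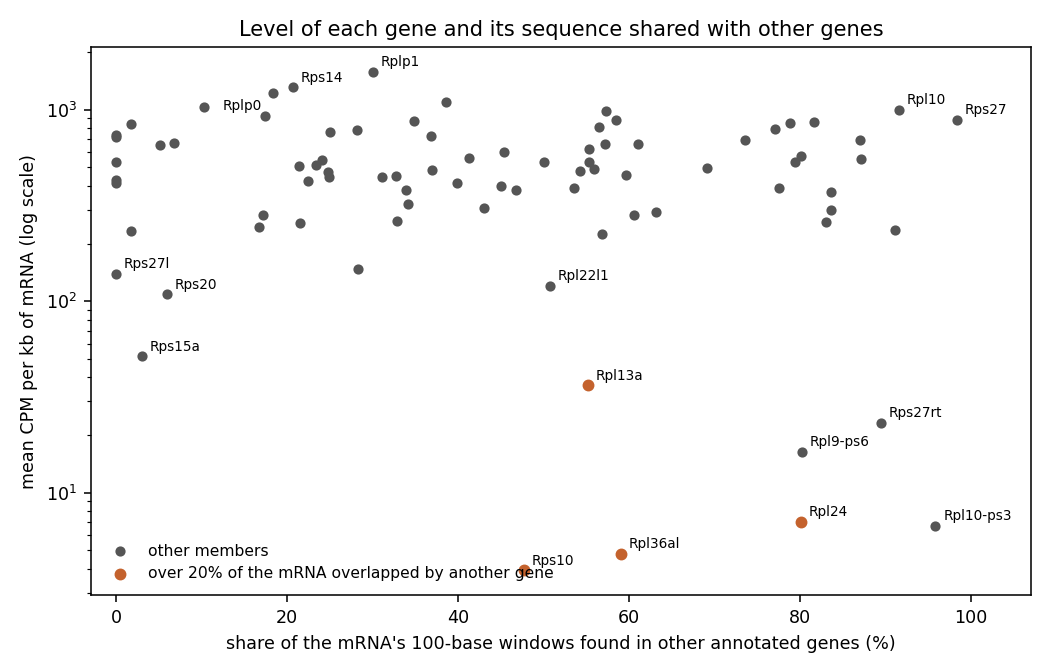
Mean CPM per kb of mRNA over the 4 libraries (log axis) against the share of 100-base windows of the mRNA that also occur in another annotated gene, 1 point per member, with the 4 members in orange that have over 20% of the mRNA overlapped by another gene. These 4 and the 3 genes with a single exon lie at or below 36.3 CPM per kb, whereas Rps27 and Rpl10 have high levels with over 90% of windows shared.

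Shared sequence with pseudogenes was the rule. Of all 100-base windows of an mRNA (the read length), a median of 45% occurred in another annotated gene, and 75 members shared a window with at least 1 pseudogene. The share reached 98.4% in Rps27, which is matched by Rps27rt and Gm17241, and 91.6% in Rpl10, and it exceeded 80% in 14 members. It was 0 in 6 members, Rpl22 and Rps27l among them. A pair of reads spans more than such a window, while inexact copies and copies outside the annotated transcripts were not searched. The share is therefore a rough guide to what is lost and no bound on it. Members at both ends of this share moved alike between the Qa-2- libraries. The 6 members without a shared window had median deviations of -0.30 and 0.24 on the log2 scale for Qa-2- replicates 1 and 2, and the 23 members with 60% or more had -0.24 and 0.17. The median log2 fold change was 0.08 in the 17 members under 20% and 0.04 in those at 60% or more.

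Of the counted pairs, few fell on the 290 pseudogene rows matched by symbol. Pseudogenes with other names, such as Gm17241, are not among these rows, and pairs that mapped to several places were not counted. All 290 together had 8088 and 6462 counts in WT and 7915 and 7260 in Qa-2- uteri, 0.510% to 0.788% of the member counts, with the highest share in Qa-2- replicate 1. Scaled to the library totals, they summed to 197.1 and 164.0 CPM in WT against 226.6 and 218.1 CPM in Qa-2- mice, an order other than that of the members.

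Members are short, with a median exon model of 1739 bases against 4546 bases for other protein-coding genes kept, and length moved with the libraries. Among other protein-coding genes of up to 1000 bases (225 genes), the median deviation on the log2 scale was 0.22 and 0.09 for WT replicates 1 and 2 and -0.27 and -0.04 for Qa-2- replicates 1 and 2. Those over 8000 bases (2465 genes) had -0.12, -0.01, 0.13 and 0.03. In Qa-2- replicate 1, other genes of 1000 to 2000 bases had -0.20 and those of 2000 to 4000 bases -0.08, against -0.29 for the members. These classes hold 34 and 29 of the 83 members. The members' low value in Qa-2- replicate 1 was thus also seen in other short genes, but was weaker in these classes. The members' high value in Qa-2- replicate 2 was not seen in other short genes. The median log2 fold change ran from 0.32 in the shortest class of other genes to -0.15 in the longest, while the members had 0.08 among those up to 1000 bases (14 genes) and 0.09 among those of 4000 to 8000 bases (6 genes). With an offset for gene length, 22 of 83 members were above 0, in place of 61. The part of length in the members' values was not tested beyond this offset.

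Of 3 genes for ribosomal products that the symbol rule does not take, 2 were lowest in Qa-2- replicate 1, Rack1 and Fau. The remaining gene was not lowest there, and the median log2 fold change of the 3 was -0.07. Rack1, a scaffold on the small subunit, had 1104 and 808.7 CPM in WT against 806.0 and 1207 CPM in Qa-2- mice. Fau, whose product is cleaved to RPS30, had 322.0 and 246.8 against 194.4 and 318.3 CPM. Of 20 translation factors and other genes with TOP mRNAs, 0 passed the test in edgeR (0 at an unadjusted p under 0.05), 13 were lowest in Qa-2- replicate 1 and 10 highest in Qa-2- replicate 2, and their median log2 fold change was -0.02 (-0.14 without Qa-2- replicate 1). Eif3e, a subunit of the initiation factor that brings mRNA to the small subunit, had 166.8 and 170.3 against 135.2 and 141.2 CPM (0.29, SE 0.16), and Eif3l of the same factor had 121.5 and 116.8 against 128.6 and 141.1 CPM (-0.18, SE 0.16). The sum of the 20 genes was between 15544 and 20056 CPM and was highest in Qa-2- replicate 2.

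The genes for proteins of the mitochondrial ribosome, which is built separately, gave 65 of 77 genes lowest in Qa-2- replicate 1 and 31 highest in Qa-2- replicate 2. None passed the test in edgeR, 1 was higher in WT and 0 in Qa-2- mice at an unadjusted p under 0.05, and the median log2 fold change of 0.11 turned to -0.03 without Qa-2- replicate 1. Mrpl33 and Mrpl54 were at the upper end (0.45, SE 0.20, and 0.43, SE 0.15) and Mrps6 and Mrpl37 at the lower (-0.44, SE 0.28, and -0.39, SE 0.18). Of 44 ribosome biogenesis genes, 30 were highest in Qa-2- replicate 2, as were most members, and 15 were lowest in Qa-2- replicate 1. In this list 0 genes passed the test. At an unadjusted p under 0.05, 0 were higher in WT and 1 in Qa-2- mice, against 8.09% and 7.09% of all genes. The median log2 fold change was -0.13 (-0.22 without Qa-2- replicate 1 and 0.03 without Qa-2- replicate 2). Both Qa-2- mice were above both WT mice in 14 genes (31.8%, against 24.5% of all genes), with the reverse in 3 (6.82%, against 25.4%). With library totals alone these were 21 genes (47.7%, against 32% of all genes) and 2 genes (4.55%, against 18.7%). Polr1b, the second largest subunit of RNA polymerase I, had 13.0 and 13.3 CPM in WT against 18.7 and 23.3 CPM in Qa-2- mice (-0.67, SE 0.19, edgeR adjusted p = 0.27). At the other end, Bysl, an assembly factor of the small subunit, had 28.1 and 30.8 against 25.4 and 22.5 CPM (0.30, SE 0.16).

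Of 22 regulators of ribosomal protein synthesis (mTOR pathway, Myc family, p53 checkpoint), 0 passed the test. At an unadjusted p under 0.05, 2 were higher in WT and 3 in Qa-2- uteri, against 8.09% and 7.09% of all genes. Deptor, an inhibitor of mTOR, had 19.5 and 23.7 CPM in WT against 36.4 and 53.0 CPM in Qa-2- mice (-1.05, SE 0.24, edgeR adjusted p = 0.25). Mycn, a Myc family transcription factor, had 31.8 and 17.5 against 37.8 and 90.8 CPM (-1.38, SE 0.50, adjusted p = 0.31). Eif4ebp1, the translation repressor that mTOR inactivates, had 94.1 and 80.1 against 59.4 and 55.5 CPM (0.60, SE 0.16, adjusted p = 0.27), and Cdkn1a, the p53 target p21, had 141.6 and 87.0 against 67.7 and 46.8 CPM (0.998, SE 0.31, adjusted p = 0.29). These 4 genes are the ends of the list by fold change, 2 on each side. Over the whole list, both WT mice were above both Qa-2- mice in 5 genes (22.7%, against 25.4% of all genes) and below them in 8 (36.4%, against 24.5%), which with library totals alone became 4 and 10 genes (18.2% and 45.5%, against 18.7% and 32% of all genes), and the median log2 fold change was -0.03 (-0.12 without Qa-2- replicate 1). Host genes of small nucleolar RNAs (9 genes) had a median of -0.01 (-0.11 without Qa-2- replicate 1), 0 at an unadjusted p under 0.05 and no gene without overlap, with Snhg8 at 0.21 (SE 0.24) and Epb41l4aos at -0.32 (SE 0.32).

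**Figure D5:**
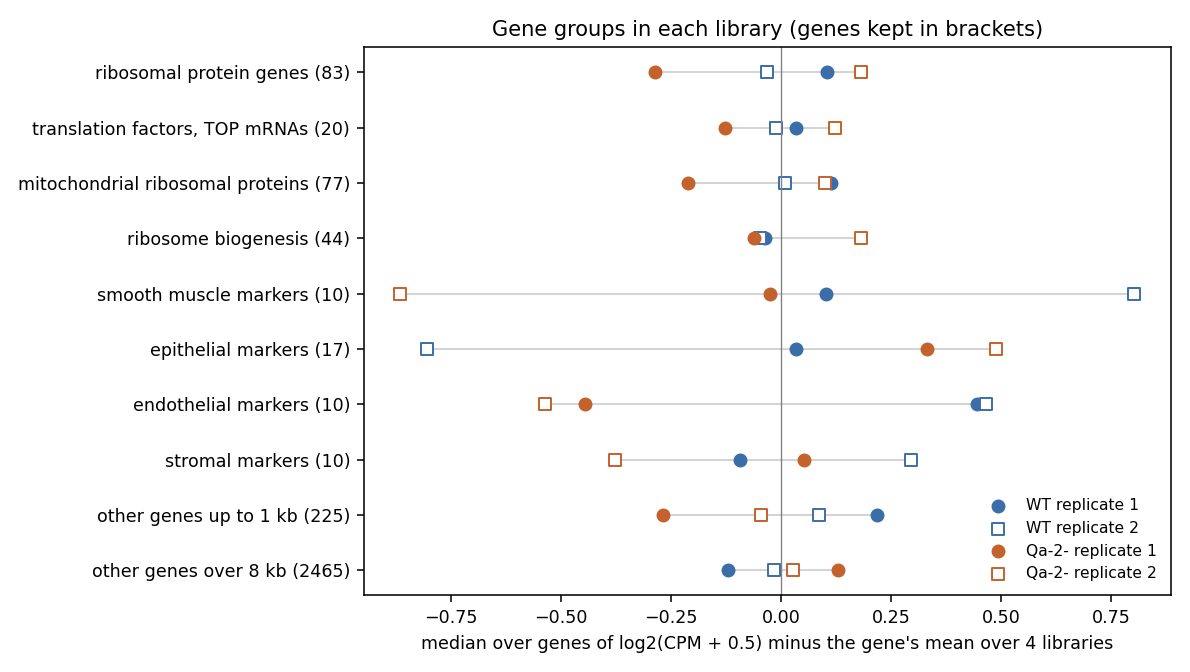
Median over the genes of each group of log2(CPM + 0.5) minus the mean of each gene over the 4 libraries, with circles for replicate 1, open squares for replicate 2, WT in blue and Qa-2- in orange. Ribosomal protein genes run from -0.29 in Qa-2- replicate 1 to 0.18 in Qa-2- replicate 2, smooth muscle markers from -0.86 in Qa-2- replicate 2 to 0.80 in WT replicate 2, and other genes of up to 1 kb from -0.27 in Qa-2- replicate 1 to 0.22 in WT replicate 1.

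Markers of the cells of the uterus differed between the same libraries. Smooth muscle markers (10 of 10 kept) summed to 26978 and 43986 CPM in WT and to 25213 and 13952 CPM in Qa-2- uteri, and were thus lowest in the library with the highest ribosomal protein share. Epithelial markers (17 of 17 kept) summed to 5782 and 3218 CPM in WT against 5921 and 11592 CPM in Qa-2- mice, being highest in that library and lowest in WT replicate 2. Ltf, lactoferrin, alone had 4933 CPM in Qa-2- replicate 2 and 414.3 to 1348 CPM elsewhere. Endothelial markers (10 of 10) summed to 1447 and 1251 against 684.9 and 677.8 CPM, and stromal markers (10 of 10) to 15696 and 27261 against 30857 and 16927 CPM. Erythroid markers (5 of 8 kept, Hbb-y at 0 in all libraries) summed to 356.5 and 692.3 against 117.8 and 79.9 CPM, and leucocyte markers (9 of 16 kept) to 835.5 and 994.2 against 648.2 and 575.3 CPM. Of 11 trophoblast markers 1 was kept, Ctsq, Gcm1, Prl3d1 and Synb were at 0 in all libraries, and the sum was highest in WT replicate 2 (33.6 CPM) and at most 3.89 CPM elsewhere. Proliferation markers (11 of 11) summed to between 257.8 and 311.9 CPM, with the highest sum again in Qa-2- replicate 2. Immediate early genes (10 of 10) summed to between 608.4 and 1023 CPM. Mitochondrially encoded genes (8 of 13 kept) summed to between 8089 CPM in Qa-2- replicate 2 and 17427 CPM in WT replicate 2. The part of cell composition in the ribosomal protein values was not tested.

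Of the members on chromosome 17, where the H2 segment of the Qa-2- strain lies, 4 are within 10 Mb of H2-Q7. Rps18 starts 1.49 Mb and Rps28 1.62 Mb before it on GRCm38, Rpl10a 7.11 Mb and Rps10 7.81 Mb before it. Rps18, a protein of the small subunit head, had 637.5 and 491.1 CPM in WT against 414.5 and 656.2 CPM in Qa-2- mice (log2 fold change 0.08, SE 0.32, and -0.22 without Qa-2- replicate 1). Rps28, near the mRNA exit of the small subunit, had 223.9 and 212.0 against 186.7 and 252.2 CPM (-0.01, SE 0.22, and -0.21 without that library). Rpl10a, which forms the L1 stalk, had 397.3 and 380.8 against 353.6 and 476.7 CPM (-0.09, SE 0.24, and -0.29 without it). All 3 overlapped between the genotypes in the way of other members, and of the 4 genes Rps10 alone, with its low counts, did not.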

How the data were processed

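Raw counts of read pairs per gene were deposited by the authors, 1 file per library. The submitters' processing notes name STAR 2.7.3a, featureCounts 2.0.0 and GRCm38.p6, and the file headers give counting on the reverse strand, without pairs that had several positions or genes. Counts depend on annotated overlaps and on shared sequence. Of the gene identifiers, 55240 matched GENCODE M21 and 181 did not. The 14492 genes that reached 1 CPM in 2 or more libraries were scaled by TMM and fitted with edgeR 4.0.16 (glmQLFit, glmQLFTest) in R 4.3.3, as WT over Qa-2-, with Benjamini-Hochberg adjustment over all genes. The SE is the log2 fold change divided by the square root of F, and 95% intervals use the moderated degrees of freedom. CPM in the text are on TMM-scaled libraries, except sums over marker lists, which use library totals. DESeq2 1.42.0 was an alternative, as were other scalings, filters, a length offset, a replicate block and leaving out each library. The steps were tested on simulated counts.

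The same-numbered libraries were not described as paired, and their deviations had a correlation of -0.37 across genes. The 2 libraries of each group differed by more than sampling noise (a mean chi-square of 240.8 in WT and 150.9 in Qa-2-), and p-values measure the spread between these mice. Genes were named by rule: the 6 largest and 6 smallest fold changes, the 3 most and 3 least abundant per kb, members within 10 Mb of H2-Q7, paralogs with their parents, the stalk, 7 further members of known role, and 2 at each end of each pathway list. Not every gene so taken is printed. Members and lists were chosen with earlier results of these data known. Windows of 100 bases were compared with all GENCODE M21 transcripts, using 1 principal mRNA per member. Genes for which no promoter was found include Rpl10-ps3, Rpl17, Rpl21, Rpl23a, Rpl29, Rpl3, Rpl30, Rpl32, Rpl36, Rpl7, Rpl8, Rpl9-ps6, Rplp1, Rps14, Rps20, Rps27a and Rps29. Some items are not reported here. Sequences and promoters are from RefSeq.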

Additional observations from a re-analysis of the deposited data

How the results depend on the processing

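No ribosomal protein gene reached an adjusted p under 0.05 under any alternative run. The number of genes called among all genes was 0, and became 700 with DESeq2, 61 without a filter on low counts, 2 with the replicate block, 2 with the replicate block and gene length offset together, and 206 when libraries were scaled to the summed counts of the ribosomal protein genes, an alternative chosen after the data were seen. Leaving out single libraries gave 0 to 93 such genes, and here the lone library of a group is assumed to vary like the others. The number of ribosomal protein genes at an unadjusted p under 0.05 was 0 and became 1 with library totals alone (Rps10), with the gene length offset (Rps10) and with the crossed pairing (Rps27l), which was also chosen after seeing the data, and 0 to 1 when single libraries were left out. The median log2 fold change of the members, 0.08, ran from -0.06 to 0.09 in the fits with all libraries, reached its lowest with the gene length offset, and ran from -0.13 to 0.33 when single libraries were left out. Members without overlap numbered 4 with WT higher and 1 with Qa-2- higher on TMM-scaled libraries, 0 and 4 with library totals alone, and 4 and 3 with upper-quartile normalization (4.82% and 3.61%, against 25.8% and 24.1% of all genes), which were also counted after the data were seen. The difference in the share of counts, -0.097 percentage points, ran from -0.757 to 0.563. The samples share only a number, and apart from the count over all genes the replicate block changed no call (0 members at either threshold, median 0.09). With 2 mice per group, counting error was small beside the spread between mice for members over 100 CPM, while Rps10, Rpl24 and Rpl36al rested on 76 to 297 read pairs per library.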
